A study of Mus musculus with 8 samples.

Results

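The 10 genes described here encode subunits of activator protein 1 (AP-1), namely *Jun*, *Junb* and *Jund* of the Jun family, *Fos*, *Fosb*, *Fosl1* and *Fosl2* of the Fos family, *Atf3*, *Batf* and *Batf3*. They were chosen by name, with earlier results of these data known, and each was taken with its gene body and 50 kb on either side. Peaks of all libraries that overlapped were merged into regions, and 105 of the 69399 regions of the genome lay in these windows. Of the 105, 50 were nearest to the start of one of the 10 genes, 19 covered the start of another protein-coding gene, and 3 lay in the windows of both *Atf3* and *Batf3*, which are neighbours on chromosome 1.

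Chromatin accessibility was measured by ATAC-seq, in which the Tn5 transposase cuts open DNA, in cultured mouse cutaneous squamous cell carcinoma (SCC) cells with 2 libraries for each of 4 lines. All lines go back to SCCs raised with DMBA and TPA in K14CreER FAKflox/flox mice of the FVB strain, with Ha-Ras as the driver gene. The lines share the deletion of the mouse gene for focal adhesion kinase (FAK), *Ptk2*, by 4-hydroxytamoxifen in culture. FAK-/- cells had no FAK put back. The other lines are the same cells after retroviral transduction with wild-type FAK (FAK-WT), with FAK impaired in nuclear localization (FAK-nls, R177A, R178A, R190A, R191A, R216A and R218A) or with kinase-deficient FAK (FAK-kd, K454R). The lines therefore descend from 1 clone of cultured tumour cells, and the replicates are described as biological, without saying whether they were separate transductions or separate cultures of the transduced cells. The comparisons ask which accessible regions go with FAK, with its nuclear localization and with its kinase activity.

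AP-1 is a dimer of basic leucine zipper proteins. Jun proteins pair with each other or with Fos, ATF and BATF proteins, whereas Fos proteins need a partner to bind DNA, and the dimers recognise short palindromic sites in promoters and enhancers. Several of the genes are immediate-early genes that growth factors and stress switch on through MAP kinases, and AP-1 downstream of Ras is known for its part in chemically induced skin carcinogenesis.

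The lists held between 24383 (FAK-nls replicate 1) and 53703 (FAK-WT replicate 1) peaks, and both FAK-nls lists were shorter than all others. The read depth behind the lists was not used here, and a longer list has more called regions anywhere in the genome, so each count was repeated with every list shortened to its top 24383 peaks as ranked by −log10 p. Fold enrichment is the peak's coverage over the local background of its own library. Over the regions called in all 8 libraries, its median on the log2 scale was 2.48 and 2.27 in FAK-WT and 2.31 and 2.22 in FAK-/- libraries. It was 2.17 and 2.23 in FAK-nls and 2.23 and 2.47 in FAK-kd libraries. Enrichments given by library below are not centred on these medians, so such offsets are part of them. A library is said to call a region when 1 of its peaks overlaps it, and a region that is not called may still be accessible below the calling threshold. Of 10 keratinocyte and epithelial marker genes, the start site of 1 (*Itga6*) was called in all 8 libraries, and those of *Krt5*, *Krt14*, *Krt8*, *Krt18*, *Trp63*, *Cdh1*, *Epcam*, *Sfn* and *Dsp* were called in none. Start sites of the 6 leukocyte markers were called in no library, those of *Pdgfra* among 4 fibroblast and *Pmel* among 4 melanocyte markers were called in all 8, and of 4 endothelial markers *Cdh5* was called in the FAK-WT libraries alone and *Kdr* in 1 FAK-nls library. The deletion in *Ptk2* cannot be read from lists of peaks and was not checked here.

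**Figure D1:**
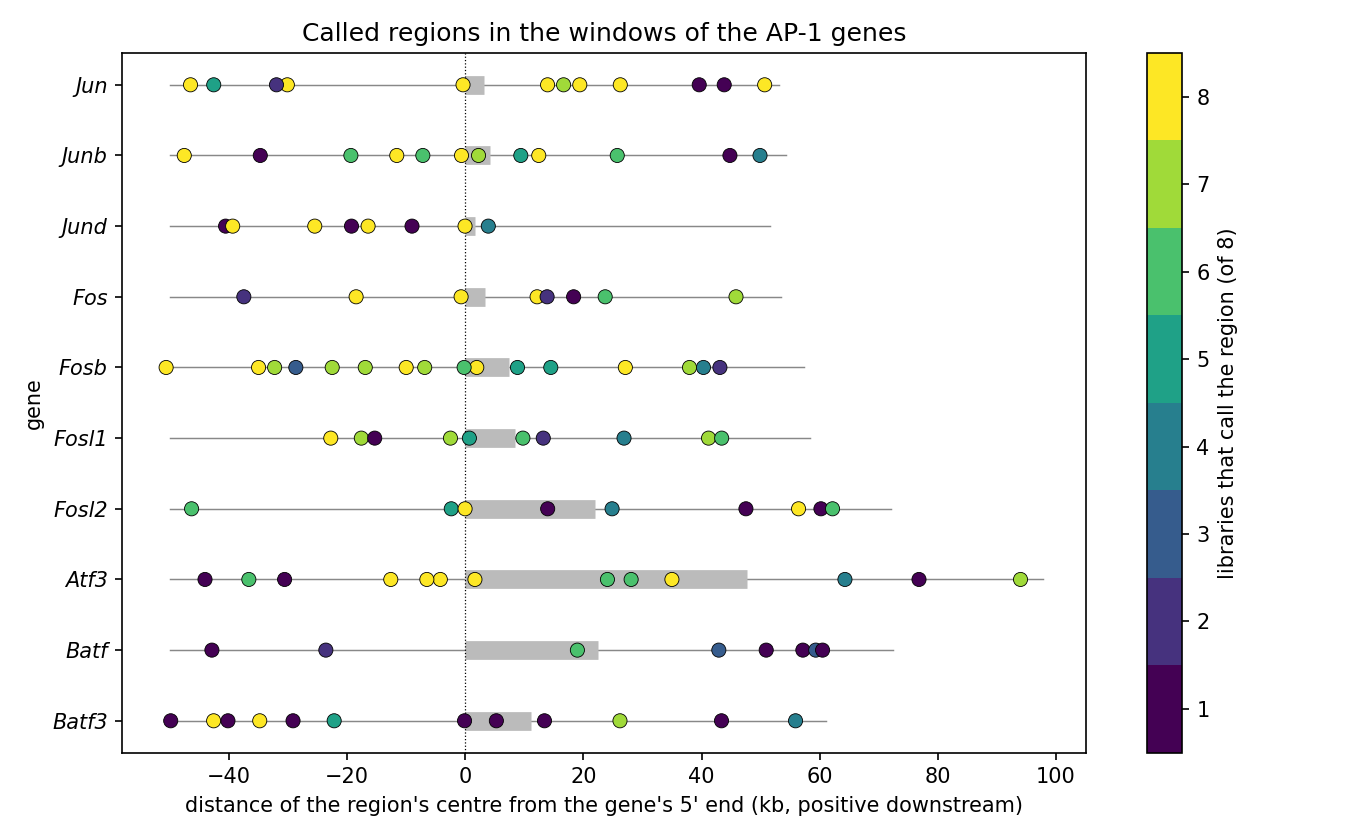
Position of each called region (circle, at its centre) in the window of each gene, in kb from the 5′ end of the gene, with the gene body as a grey bar and the colour giving how many of the 8 libraries call the region. Regions called in all 8 lie at or near the 5′ end of *Jun*, *Junb*, *Jund*, *Fos* and *Fosl2*, whereas no region of the *Batf* window is called in all 8.

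The start sites whose sequence bears best on known regulation are those of *Jun*, *Fos*, *Junb* and *Fosb*. The stretches of *Jun* and *Junb* are the 250 bases before the RefSeq start (GRCm38.p6, minus strand, chr4:95052223-95052472 and chr8:84978749-84978998). Those of *Fos* (chr12:85473537-85473836) and *Fosb* (chr7:19310198-19310317) were read from the plus strand of the same genome, inside the region called at the start. Capitals mark matches, sought on both strands, to the AP-1 site (TGACTCA or TGAGTCA), its 8-base variant (TGACATCA), the cyclic AMP response element or CRE (TGACGTCA), the ETS site (AGGAAGT or CGGAAGT) and the CArG box, which binds serum response factor.
*Jun* promoter: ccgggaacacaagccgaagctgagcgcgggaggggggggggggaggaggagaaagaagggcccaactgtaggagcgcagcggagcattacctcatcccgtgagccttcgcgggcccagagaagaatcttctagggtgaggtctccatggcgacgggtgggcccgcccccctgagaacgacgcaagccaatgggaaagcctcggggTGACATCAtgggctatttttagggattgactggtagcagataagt
*Junb* promoter: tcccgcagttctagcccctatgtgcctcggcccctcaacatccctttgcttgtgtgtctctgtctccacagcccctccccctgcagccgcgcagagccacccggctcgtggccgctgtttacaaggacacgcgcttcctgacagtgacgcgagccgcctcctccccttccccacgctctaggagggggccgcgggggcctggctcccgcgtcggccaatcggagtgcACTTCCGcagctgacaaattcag
*Fos* start region: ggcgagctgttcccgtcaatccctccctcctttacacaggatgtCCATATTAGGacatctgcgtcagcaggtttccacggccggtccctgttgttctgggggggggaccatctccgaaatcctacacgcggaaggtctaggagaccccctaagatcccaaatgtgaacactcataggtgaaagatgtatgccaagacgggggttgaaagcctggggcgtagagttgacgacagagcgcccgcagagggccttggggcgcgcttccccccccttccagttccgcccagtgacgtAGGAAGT
*Fosb* start region: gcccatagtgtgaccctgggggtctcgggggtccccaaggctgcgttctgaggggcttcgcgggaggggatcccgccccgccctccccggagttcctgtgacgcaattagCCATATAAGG

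The *Jun* promoter held the 8-base variant at −45 from the start, the *Fos* stretch held a CArG box at −309 and an ETS site at −60, and the *Fosb* stretch held a CArG box at −266. The ETS site of the *Junb* promoter lay at −53 from the 5′ end of the gene record. None of these stretches held the 7-base AP-1 site. RefSeq promoter windows of 300 bases were at hand for 9 of the 10 genes, *Fosl1* excepted. The AP-1 site was found in 0 of the 9 and in 5.20% of 32851 windows of all genes, the 8-base variant in 1 of the 9 (3.62% of all) and the ETS site in 2 of the 9 (15.1% of all). The CRE and the CArG box were found in none of the 9 windows (1.79% and 1.63% of all), the boxes of *Fos* and *Fosb* lying farther upstream than the window. Over the whole called start region, which is longer, AP-1 sites were found at *Fosl1* (2), *Fosl2* (1) and *Atf3* (1). A CRE lay at −214 of *Jund*, a further CArG box at −1450 of *Junb* and the 8-base variant at −1724 of *Fos*. Further ETS sites lay at −593 of *Jun*, −1075 of *Junb* and 385 of *Fosl2*. No share over all genes was taken for whole start regions, which differ in length. A match is a string of letters and not a measured binding site.

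The number of AP-1 regions called followed the length of the lists, except between the FAK-nls libraries. Of the 105 regions 87 and 69 were called in FAK-WT replicates 1 and 2, 78 and 67 in those of FAK-/-, 45 and 42 in those of FAK-nls, and 63 and 80 in those of FAK-kd. No other library called as few as either FAK-nls library. At equal numbers of peaks the libraries called 43 and 42, 43 and 46, 45 and 42, and 51 and 44 regions in the same order, so the FAK-nls libraries no longer lay apart and the highest value was that of FAK-kd replicate 1.

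**Figure D2:**
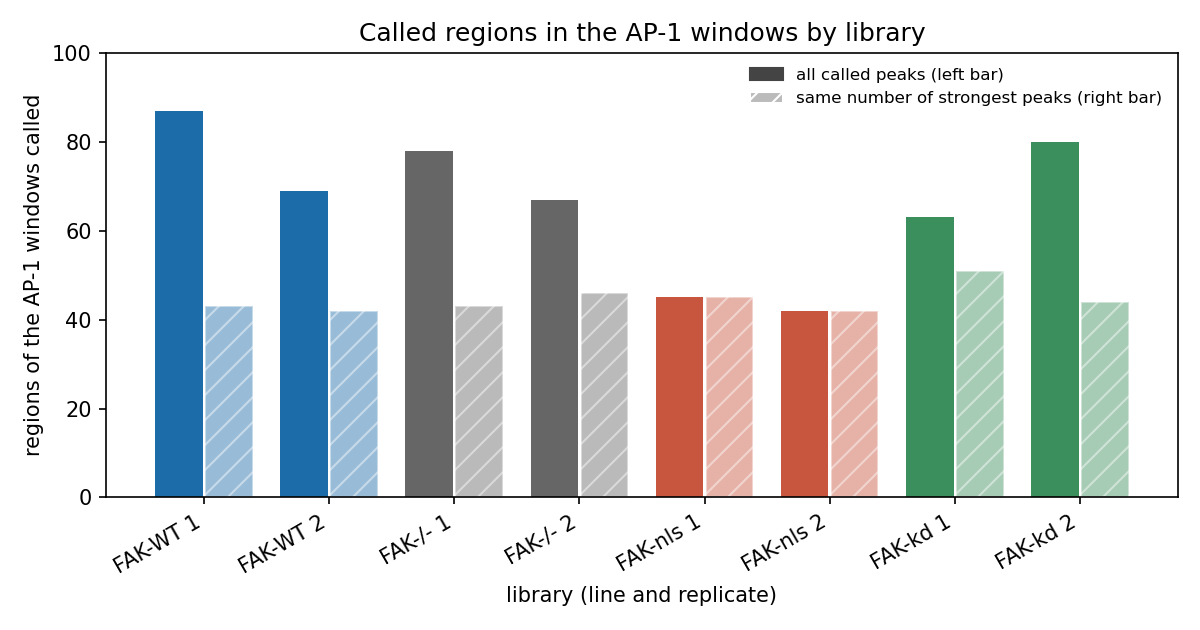
Number of the 105 regions called in each library, with all peaks (left bars) and with the 24383 strongest peaks of each library (right bars), coloured by line. With all peaks the FAK-nls libraries call 45 and 42 regions against 63 to 87 in the others, and with equal numbers all 8 libraries call between 42 and 51.

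Of the 105 regions 33 (31.4%) were called in all 8 libraries, against 25.8% of all regions of the genome, and 25 (23.8%) were called in 1 library only, against 28.6%. With the same number of peaks taken from each library the order turned, and 19 of 80 regions (23.8%) were called in all 8, against 32.7% of all regions. A region was counted as WT-only against another line when both FAK-WT libraries and neither library of that line called it, and as reverse in the opposite case. Against FAK-/- cells 2 regions were WT-only (background 4.89%) and 0 were reverse (1.18%). Against FAK-kd cells 2 were WT-only (4.33%) and 0 reverse (0.83%). Against FAK-nls cells 18 regions (17.1%) were WT-only, beside 15.3% of all regions, and 0 were reverse, beside 0.248%. Since 2 libraries against 2 allow no exact p under 0.05, these counts carry no test, and the 3 comparisons share the FAK-WT libraries. Without FAK-WT replicate 2 the WT-only counts were 14, 37 and 13 against FAK-/-, FAK-nls and FAK-kd, and the shares of all regions rose as well, to 20.4%, 37.6% and 18.1%.

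The 18 WT-only regions of the FAK-nls comparison were mostly called in other lines as well. Of the 18, 10 were called in all 6 libraries outside the FAK-nls pair (9.52% of the AP-1 regions, against 4.12% of all regions), those of FAK-/- cells included, and 1 had calls in the FAK-WT pair only (1.99% of all regions). At equal numbers of peaks, 4 of the 18 had calls in both libraries of FAK-WT and 3 had none in any library. At equal numbers the windows held 80 regions, of which 4 were WT-only and 4 reverse against FAK-nls, beside 4.91% and 4.23% of all regions. Against FAK-/- they were 3 and 2 (3.44% and 3.31% of all regions), and against FAK-kd 1 and 3 (3.10% and 2.64%). Of the 4 that stayed WT-only against FAK-nls, 3 lay in or upstream of *Atf3*. The 4 reverse ones were called in every library when all peaks were used, and 3 of them lay in the *Fosb* window, 1 inside the gene, and 1 lay 13.9 kb downstream of the *Jun* start.

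**Figure D3:**
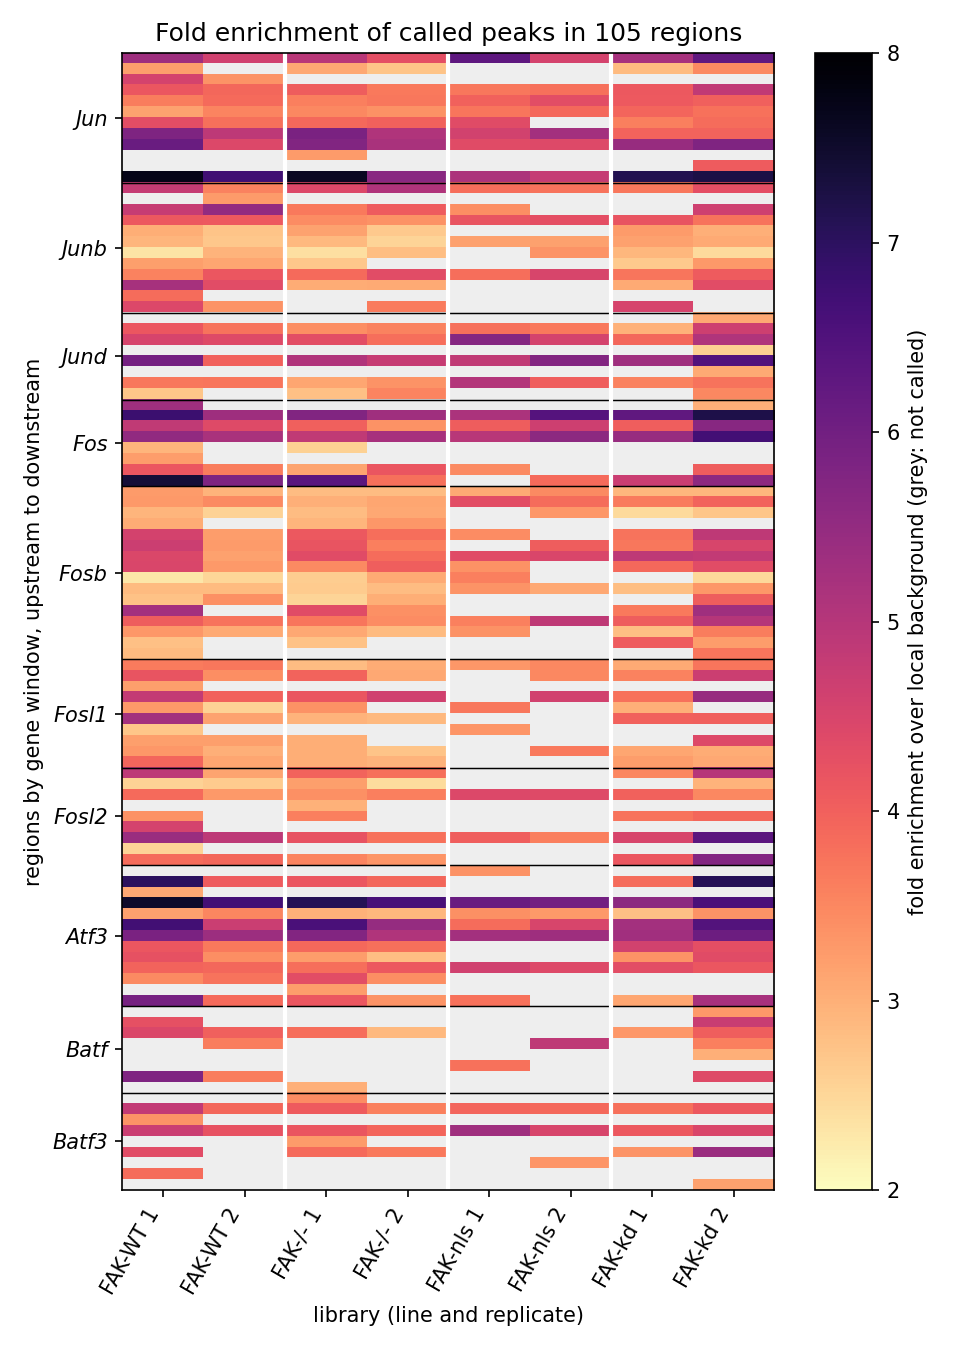
Fold enrichment of the called peak in each of the 105 regions (rows, grouped by gene and ordered from upstream to downstream) and 8 libraries (columns), with grey where a library calls no peak. Grey cells are most frequent in the FAK-nls columns and in the *Batf* and *Batf3* rows.

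*Jun* encodes c-Jun, the subunit that binds to AP-1 sites alone or with a Fos partner, and its start region (chr4:95051653-95053545) was called in every library. Its fold enrichment was 3.64 and 3.86 in FAK-WT, 3.61 and 3.69 in FAK-/-, 3.99 and 4.30 in FAK-nls and 4.11 and 4.01 in FAK-kd libraries. The FAK-nls and FAK-kd libraries lay above all FAK-WT and FAK-/- libraries, by small amounts. By −log10 p this peak stood between the top 9.11% and 17.3% of each list, which made it the best placed of the start regions by the median (14.4%). Of 12 regions in the *Jun* window 7 were called in all 8 libraries, the most of any of the 10 genes, and 9 were nearest to *Jun* itself.

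The region of the window outside any start site with the best median rank by −log10 p lay 50.7 kb downstream of *Jun* (chr4:95001158-95001910), nearest to the start of *Mysm1*. It had a fold enrichment of 7.74 and 6.73 in FAK-WT, 7.61 and 5.64 in FAK-/-, 5.13 and 4.78 in FAK-nls and 7.14 and 7.24 in FAK-kd libraries, so both FAK-nls libraries were the lowest of the 8. A region that covers the start of the non-coding gene *Junos*, 46.5 kb upstream of *Jun* (chr4:95097863-95099599), stood at a median of 4.77% of the lists, the best of the 105 by this measure but behind a region upstream of *Atf3* by the median of the ranks themselves (2302 against 1919.5), with an enrichment of 5.34 and 4.62 in FAK-WT and 6.27 and 4.54 in FAK-nls libraries. Over all 8 libraries its enrichment ran from 4.27 to 6.27, the lowest value being from a FAK-/- library. The region was singled out after its values were seen. The region of the FAK-WT pair alone lay 32.0 kb upstream of *Jun* (chr4:95083992-95084364) and was nearest to *Jun*. It was called in FAK-WT replicates 1 and 2, with a fold enrichment of 4.55 and 3.35 and a rank at 31.1% and 71.8% of the list, and in no other library. At equal numbers of peaks it was called in FAK-WT replicate 1 alone. The regions at +50.7 and −32.0 kb held AP-1 sites, as the following stretches (GRCm38.p6, plus strand, chr4:95001525-95001824 and chr4:95084028-95084327) show, with AP-1 and ETS matches in capitals.
*Jun* +50.7 kb: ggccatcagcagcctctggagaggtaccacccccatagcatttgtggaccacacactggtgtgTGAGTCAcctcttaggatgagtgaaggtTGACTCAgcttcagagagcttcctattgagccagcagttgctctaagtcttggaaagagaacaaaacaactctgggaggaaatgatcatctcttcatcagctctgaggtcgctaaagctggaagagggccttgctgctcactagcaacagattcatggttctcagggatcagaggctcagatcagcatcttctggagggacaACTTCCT
*Jun* −32.0 kb: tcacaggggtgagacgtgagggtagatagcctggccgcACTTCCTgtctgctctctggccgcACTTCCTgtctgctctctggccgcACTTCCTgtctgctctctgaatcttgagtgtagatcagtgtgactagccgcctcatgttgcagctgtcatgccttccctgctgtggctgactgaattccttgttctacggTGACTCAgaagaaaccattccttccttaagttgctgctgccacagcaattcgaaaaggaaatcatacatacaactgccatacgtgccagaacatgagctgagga

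The first stretch held 2 AP-1 sites and 1 ETS site, and the second held 1 AP-1 site and 3 ETS sites, which lie in repeats of one short unit. In the central 500 bases of all 69399 regions, 35.3% held an AP-1 site and 17.0% an ETS site. The 105 regions of the AP-1 genes held them in 30 (28.6%) and 21 cases, and the 18 WT-only regions of the FAK-nls comparison in 5 (27.8%) and 4 (22.2%) cases.

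*Junb* encodes JunB, a Jun protein known to restrain c-Jun in some settings. Its start region (chr8:84978348-84980360) had the lowest enrichment of the start regions called in every library, with 2.92 and 2.70 in FAK-WT, 2.89 and 2.52 in FAK-/-, 3.19 and 3.18 in FAK-nls and 3.18 and 3.06 in FAK-kd libraries. The FAK-nls and FAK-kd libraries lay above the other 4. The called length, summed over the peaks in the region, was 200 and 520 bp in the FAK-nls libraries and between 799 and 1969 bp in the others. In broad peak calling enrichment is a mean over the peak, and the part of called length in these values was not tested. A second start of *Junb* inside the gene (chr8:84976122-84976817) was called in 7 libraries, FAK-nls replicate 1 being the exception.

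The *Junb* window held 4 regions that were WT-only against FAK-nls, all of them nearest to other genes. The 1 with the most AP-1 sites lay 7.18 kb upstream of *Junb*, nearest to *Hook2* (chr8:84985398-84986399), and its 3 sites fall into the stretch chr8:84985657-84985956 (GRCm38.p6, plus strand, AP-1 sites in capitals).
*Junb* −7.18 kb: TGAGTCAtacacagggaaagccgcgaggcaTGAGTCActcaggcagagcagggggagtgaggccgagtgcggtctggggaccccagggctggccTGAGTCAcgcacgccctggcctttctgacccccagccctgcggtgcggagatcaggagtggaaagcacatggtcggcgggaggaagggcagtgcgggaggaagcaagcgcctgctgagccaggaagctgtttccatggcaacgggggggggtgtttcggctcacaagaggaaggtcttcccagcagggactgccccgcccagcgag

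Its fold enrichment was 3.01 and 2.74 in FAK-WT, 3.15 and 2.67 in FAK-/- and 3.255 and 2.998 in FAK-kd libraries, so the FAK-/- libraries spanned those of FAK-WT, and 1 FAK-WT library lay below both FAK-kd libraries. Its rank lay between 51.2% and 90.1% of the lists, and at equal numbers of peaks it was called in 1 FAK-/- and 1 FAK-kd library and in no FAK-WT library. Outside a start site, the best ranked region (chr8:84997732-84998426, 19.4 kb upstream, nearest to *Hook2*) was called in 6 libraries, with an enrichment of 4.74 and 5.49 in FAK-WT, 3.68 and 4.07 in FAK-/-, 3.42 in FAK-nls replicate 1 and 4.65 in FAK-kd replicate 2.

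*Jund* encodes JunD, the Jun protein that is present most steadily in resting cells. Its start region (chr8:70698319-70699505) was called in every library and covers the start in the GENCODE annotation, whereas the start in RefSeq lies in no called region. Fold enrichment was 3.70 and 3.73 in FAK-WT, 3.12 and 3.34 in FAK-/-, 5.03 and 4.02 in FAK-nls and 3.55 and 3.74 in FAK-kd libraries. Both FAK-/- libraries were the lowest and both FAK-nls libraries the highest, FAK-nls replicate 1 by a wide margin. Outside a start site, the peak of best rank lay 16.4 kb upstream, nearest to *Lsm4* (chr8:70682003-70683002), was called in every library and ranged from 3.97 in FAK-WT replicate 2 to 6.46 in FAK-kd replicate 2. *Jund* had no WT-only and no reverse region in any comparison.

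*Fos* encodes c-Fos, the immediate-early partner of c-Jun, and all 8 regions of its window were nearest to *Fos*. The start region (chr12:85472028-85474346) had an enrichment of 4.84 and 4.38 in FAK-WT, 4.00 and 3.38 in FAK-/-, 4.06 and 4.66 in FAK-nls and 4.02 and 5.66 in FAK-kd libraries. Both FAK-/- libraries were lowest, and the FAK-kd libraries lay farther apart than those of any other line, with a mean of 4.84 ± 1.16 (SD, n = 2) against 4.61 ± 0.326 in FAK-WT cells. The best ranked region outside a start site lay 18.5 kb upstream (chr12:85454912-85455916) and was among the strongest peaks of each list, at 3.18% to 12.0% by rank. Its enrichment was 6.79 and 5.34 in FAK-WT, 5.76 and 5.31 in FAK-/-, 5.15 and 6.42 in FAK-nls and 6.26 and 7.21 in FAK-kd libraries. FAK-WT overlapped with each other line, and both FAK-kd libraries were above both FAK-/- libraries. No region of the *Fos* window was WT-only or reverse.

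*Fosb* encodes FosB and, by alternative splicing, its truncated form. Its window held 16 regions, the most of the 10 genes, and none was called in a single library only. The start region (chr7:19309977-19310507) was weak and was called in 6 libraries, with an enrichment of 2.28 and 2.50 in FAK-WT, 2.61 and 3.06 in FAK-/- libraries, 3.61 in FAK-nls replicate 1 and 2.48 in FAK-kd replicate 2. A region inside the gene, 1.95 kb downstream of its start (chr7:19307297-19308905), was called in all 8, with 2.85 and 2.85 in FAK-WT, 2.65 and 2.83 in FAK-/-, 3.34 and 3.08 in FAK-nls and 2.81 and 3.30 in FAK-kd libraries. Both FAK-nls libraries were above both FAK-WT libraries there. At equal numbers of peaks this region was called in no FAK-WT library, in FAK-/- replicate 2 and in both libraries of FAK-nls and of FAK-kd cells. The best ranked region outside a start site lay 10.0 kb upstream (chr7:19319729-19320372) and was lowest in FAK-WT replicate 2 (3.19, against 3.85 to 4.88 in the other 7 libraries). The single WT-only region of this window against FAK-nls lay 8.84 kb downstream of the start (chr7:19300678-19301740) and was called in 5 libraries, FAK-kd replicate 2 and both FAK-/- libraries included.

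*Fosl1* encodes FRA-1, a Fos protein often raised in invasive carcinoma cells. Its start region (chr19:5447477-5449020) was called in 5 libraries, with an enrichment of 3.28 and 2.55 in FAK-WT, 3.37 in FAK-/- replicate 1, 3.69 in FAK-nls replicate 1 and 2.995 in FAK-kd replicate 1. In FAK-WT replicate 2 it stood at 99.2% of the list, next to the calling threshold, so neither its call nor the missing calls separate the lines. A region 2.50 kb upstream (chr19:5444674-5445414), the best ranked outside a start site, was called in 7 libraries, with 4.81 and 3.99 in FAK-WT, 4.16 and 4.60 in FAK-/-, 4.59 in FAK-nls replicate 2 and 3.76 and 5.43 in FAK-kd libraries. The lines overlapped there as well. The 3 regions of the window that were WT-only against FAK-nls each covered the start of another gene (*Ccdc85b*, *Efemp2* and *Cfl1*).

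*Fosl2* encodes FRA-2. Its start region (chr5:32135022-32136522) was called in every library, with an enrichment of 3.85 and 3.28 in FAK-WT, 3.40 and 3.61 in FAK-/-, 4.43 and 4.37 in FAK-nls and 3.99 and 3.49 in FAK-kd libraries, and both FAK-nls libraries were above the other 6. Outside any start, the leading region lay 56.4 kb downstream of the start, nearest to *Plb1* (chr5:32191775-32192678), and went the other way, with 5.40 and 4.90 in FAK-WT against 4.03 and 3.61 in FAK-nls libraries, 4.21 and 3.76 in FAK-/- and 4.50 and 6.33 in FAK-kd libraries. Of 3 WT-only regions in the FAK-nls comparison, 1 was nearest to *Fosl2*, 2.37 kb upstream (chr5:32132931-32133935). It was weak, with 2.55 and 2.65 in FAK-WT, 3.22 and 2.43 in FAK-/- libraries and 2.94 in FAK-kd replicate 2, and was not called in FAK-kd replicate 1.

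*Atf3* encodes a stress-induced repressor or activator of the ATF family. The 5′ end of its annotated record was called in no library, but the start of a shorter transcript inside it, which is the RefSeq start, was called in every library (chr1:191182326-191183781). Enrichment there was 3.95 and 3.92 in FAK-WT, 3.81 and 4.13 in FAK-/-, 4.61 and 4.41 in FAK-nls and 4.32 and 4.14 in FAK-kd libraries, with both FAK-nls libraries the highest. The best ranked region outside a start site, and the best of its kind in the 10 windows (median rank 1919.5, at a median of 5.61% of the lists), lay 12.6 kb upstream of the record (chr1:191230266-191231028). It had 7.53 and 6.68 in FAK-WT, 7.09 and 6.61 in FAK-/-, 6.12 and 5.96 in FAK-nls and 5.59 and 6.55 in FAK-kd libraries. The lowest 4 of these uncentred values were all from FAK-nls and FAK-kd libraries. With each library centred on its median, the log2 difference FAK-WT minus FAK-nls was 0.05 ± 0.13 (SE). Against FAK-kd it was 0.20 ± 0.13, and against FAK-/- −0.06 ± 0.13.

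The *Atf3* window held 3 of the 4 regions counted as WT-only against FAK-nls both with all peaks and at equal numbers. The first lay in an intron 24.1 kb downstream of the 5′ end (chr1:191193636-191194305), with an enrichment of 4.14 and 3.67 in FAK-WT, 3.89 and 3.79 in FAK-/- and 4.60 and 4.29 in FAK-kd libraries. It was called in each of these 6 libraries, with all peaks and at equal numbers, and in neither FAK-nls library. The second, in the gene 28.1 kb downstream (chr1:191189640-191190277), had 4.24 and 3.42 in FAK-WT, 3.23 and 2.81 in FAK-/- and 3.34 and 4.36 in FAK-kd libraries. The third lay 36.6 kb upstream (chr1:191254414-191254938), with 7.01 and 4.08 in FAK-WT, 4.15 and 3.92 in FAK-/- and 3.84 and 7.08 in FAK-kd libraries. FAK-WT replicate 1 and FAK-kd replicate 2, the libraries with the longest lists, had the highest values in the last of these. With all peaks the FAK-/- libraries had calls in all 3, so the calls did not separate cells with wild-type FAK from cells without FAK. At equal numbers FAK-WT replicates 1 and 2 and FAK-kd replicate 2 called the second, and the third was called in the FAK-WT and FAK-kd pairs and in FAK-/- replicate 2.

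A further region between *Atf3* and *Batf3* (chr1:191152941-191154584), nearest to *Fam71a*, was called in the pairs of FAK-WT and FAK-/- libraries (3.48, 3.74, 4.32 and 3.41) and in no FAK-nls or FAK-kd library. Its best rank was 25029, below the 24383 strongest peaks, so it was called in no library at equal numbers. The region 12.6 kb upstream, the intron region and this one are shown by 120 bases each (GRCm38.p6, plus strand, AP-1 sites in capitals) at chr1:191230652-191230771, chr1:191193800-191193919 and chr1:191154393-191154512, each with 1 AP-1 site.
*Atf3* −12.6 kb: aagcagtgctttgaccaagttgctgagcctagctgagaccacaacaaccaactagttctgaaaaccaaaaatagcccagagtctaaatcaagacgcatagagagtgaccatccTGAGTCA
*Atf3* intron: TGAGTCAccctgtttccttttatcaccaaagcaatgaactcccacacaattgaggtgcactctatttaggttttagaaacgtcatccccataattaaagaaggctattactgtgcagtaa
between *Atf3* and *Batf3*: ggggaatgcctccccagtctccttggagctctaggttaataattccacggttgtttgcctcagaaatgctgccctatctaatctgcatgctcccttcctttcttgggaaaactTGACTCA

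*Batf* and *Batf3* encode small partners of Jun proteins that are best known from lymphocytes and dendritic cells. The start of *Batf* was called in no library, and none of the 8 regions in its window was called in all 8. The region with the most calls lay inside the gene, 18.98 kb from its start (chr12:85705260-85706045), with an enrichment of 4.44 and 4.00 in FAK-WT, 3.82 and 2.89 in FAK-/- and 3.30 and 4.02 in FAK-kd libraries and no call in FAK-nls libraries. At equal numbers of peaks it was called in FAK-WT replicate 2 alone. It held no AP-1 site and 2 ETS sites, in capitals in the stretch chr12:85705271-85705570 (GRCm38.p6, plus strand).
*Batf* +18.98 kb: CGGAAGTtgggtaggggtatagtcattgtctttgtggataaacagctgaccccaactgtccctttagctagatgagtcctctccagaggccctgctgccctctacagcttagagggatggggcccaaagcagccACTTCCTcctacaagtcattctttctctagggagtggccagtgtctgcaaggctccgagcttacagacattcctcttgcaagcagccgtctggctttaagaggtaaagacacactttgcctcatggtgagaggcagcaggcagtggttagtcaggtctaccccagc

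Another region, 59.3 kb downstream of the *Batf* start and nearest to *Flvcr2* (chr12:85745721-85746287), was WT-only against both FAK-/- and FAK-nls cells. It was called in FAK-WT replicates 1 and 2 (5.80 and 3.63) and in FAK-kd replicate 2 (4.37), and at equal numbers in FAK-WT replicate 1 alone. By median position in percent of the list, the first region of the window outside a start site lay 23.6 kb upstream (chr12:85662939-85663202) at 59.6%, with calls in FAK-WT replicate 1 (4.26) and FAK-kd replicate 2 (4.73), and was nearest to *Batf*. The start of *Batf3* (chr1:191097347-191098109) was called in FAK-nls replicate 2 alone, with an enrichment of 3.33 and at 96.6% of the list. Outside any start, the leading region of the *Batf3* window lay 42.6 kb upstream, nearest to *Tatdn3* (chr1:191054784-191055720), and was called in every library at 3.58 to 4.82, and 7 of the 12 regions of this window were called in 1 library only.

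Across the family, the start was called in all 8 libraries at 6 of the 10 genes (*Jun*, *Junb*, *Jund*, *Fos*, *Fosl2* and *Atf3*), against 39.5% of 21911 protein-coding genes, in some at 3 and in none at 1. The median rank over the calling libraries ordered the starts as *Jun* (14.4%), *Atf3* (25.3%), *Fosl2* (26.9%), *Fos* (26.9%), *Jund* (33.0%), *Junb* (52.3%), *Fosl1* (72.3%), *Fosb* (80.1%) and *Batf3* (96.6%). *Atf3*, *Fosl2*, *Fos* and *Jund* overlapped in their ranks over the libraries. *Jun* overlapped *Fos*, whose mean rank in FAK-WT libraries was 15.6%, and did not overlap *Junb*. Ranked by fold enrichment instead, these 6 starts fell to between 48.3% and 97.6%, with *Fos* first and *Junb* last.

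**Figure D4:**
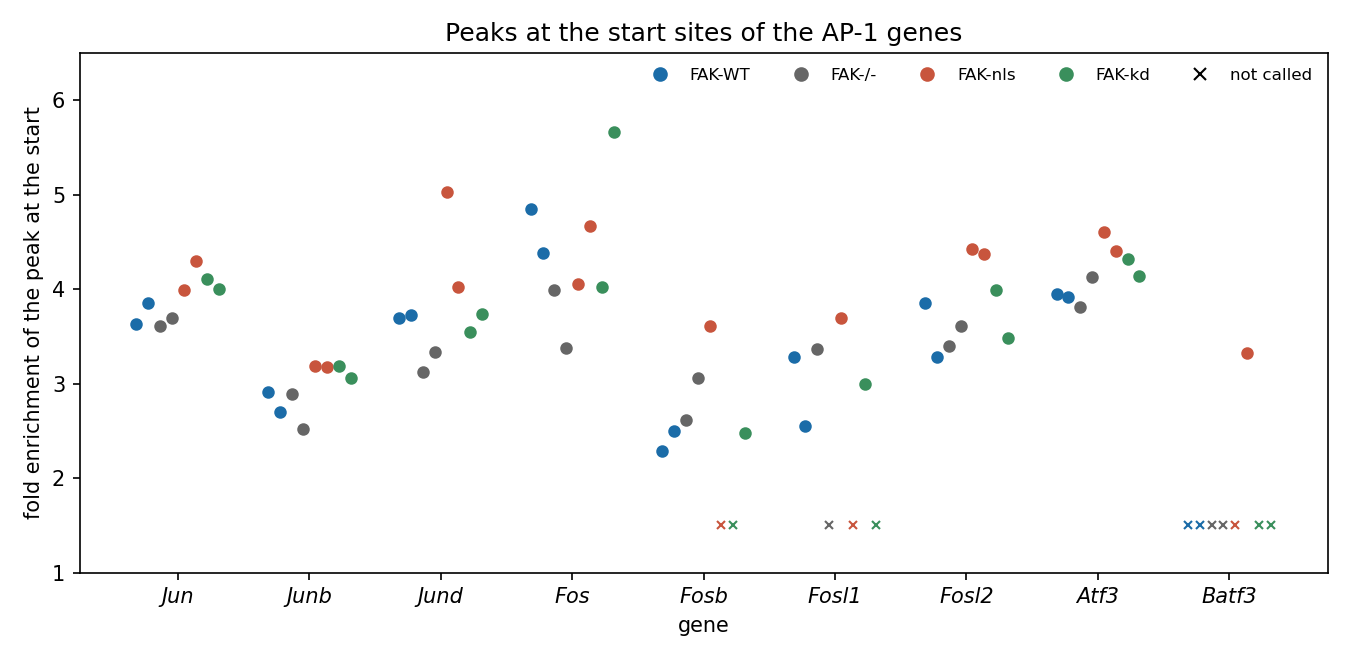
Fold enrichment of the peak at the start of each gene (vertical axis, ratio to local background) in each library (circles, coloured by line; crosses at the bottom mark libraries that call no peak), with *Batf* left out because no library calls its start. The FAK-nls circles lie above both FAK-WT circles at *Jun*, *Junb*, *Jund*, *Fosl2* and *Atf3* but not at *Fos*.

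To test whether the strength of regions differed, log2 fold enrichment was fitted with limma over the 17917 regions called in all 8 libraries, each library centred on its median, and differences are given as FAK-WT minus the other line. Of the 33 AP-1 regions, 0 passed an adjusted p of 0.05 in any of the 3 comparisons (0.0279% of all regions against FAK-/-, 0% against FAK-nls and 0.0167% against FAK-kd). Unadjusted p-values under 0.05 from limma were found for 1, 12 and 2 of the 33, against 7.68%, 15.9% and 6.21% of all regions. The median difference was −0.02 against FAK-/- (all regions −0.01), −0.22 against FAK-nls (all regions −0.03) and −0.08 against FAK-kd cells (all regions −0.01). The widest 95% confidence limits of a single region were −0.80 and 0.72, so changes of up to that size are not excluded.

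The 12 regions with a small unadjusted p against FAK-nls comprised 11 that were lower and 1 that was higher in FAK-WT cells. They included 5 of the 6 start regions, beside 14.5% of the 8080 regions over a start of a protein-coding gene. The number with a small unadjusted p was lower without FAK-WT replicate 1 (3 regions with 1 start, beside 8.21% of all regions) and without FAK-nls replicate 1 (4 with 1 start, beside 12.9%). All 6 starts stayed lower in FAK-WT cells in both cases, with a median of −0.29 and −0.32 against −0.37 with all libraries. It was 3 with 1 start without centring (14.5% of all regions), 5 with 1 start on log2 pileup (17.1%), 8 with 3 starts after quantile normalization (15.4%), and 8 of 18 regions with 4 of 5 starts at −log10 q of at least 3 (16.4%). The difference was −0.49 ± 0.15 (SE; limma adjusted p = 0.149, the smallest of the 33) at the *Fosl2* start, −0.46 ± 0.15 at *Jund*, −0.37 ± 0.15 at *Atf3*, −0.36 ± 0.12 at *Junb* and −0.32 ± 0.15 at *Jun*. The mean called length, summed over the peaks of a library in the region, was shortest in FAK-nls cells at all 6 starts. It was 768 bp against 1290.5 bp in FAK-WT cells at *Fosl2* and 1514 bp against 1817.5 bp at *Jun*. At *Jund* it was 881 bp, against 888.5 bp in FAK-/- cells. The part of called length in these differences was not tested. At the *Fos* start the difference was −0.10 ± 0.15, with a 95% confidence interval from −0.40 to 0.21. The 1 region that was higher was that 50.7 kb downstream of *Jun* (0.36 ± 0.15, limma adjusted p = 0.243).

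The share of regions that were lower in FAK-WT cells depended on the measure of strength. Each measure used only regions called in all 8 libraries, so the 18 WT-only regions of the FAK-nls comparison were left out. The part of this selection in the direction of the differences was not tested. On centred fold enrichment 28 of the 33 regions were lower in FAK-WT than in FAK-nls cells, beside 65.5% of all 8080 regions that cover a start of a protein-coding gene and 46.9% of the 9837 that cover none. Without centring 17 of the 33 (51.5%) and 5 of the 6 starts were lower, beside 24.7% of all regions, whose median moved from −0.03 to 0.15. On log2 pileup 21 of 33 (63.6%) and 4 of the 6 starts were lower, beside 55.4% of all regions. By rank percentile of −log10 p 27 of the 33 and 3 of the 6 starts were higher in FAK-WT cells, as were 83.4% of all regions. Regions called in all 8 libraries fill a larger part of the shorter FAK-nls lists, so list length by itself moves their percentiles. This measure therefore gives no direction, and the part of list length was not tested. By rank percentile 955 of the 17917 regions passed an adjusted p of 0.05 in limma. Among them were 2 of the 33, both higher in FAK-WT cells, namely the region 50.7 kb downstream of *Jun* and a region 4.22 kb upstream of *Atf3* (chr1:191221987-191222531). On centred fold enrichment neither passed (limma adjusted p = 0.243 and 0.432), so these calls are not read as a change. At the *Atf3* region the enrichment was 6.70 and 4.71 in FAK-WT, 6.58 and 5.47 in FAK-/-, 3.84 and 4.49 in FAK-nls and 5.28 and 6.45 in FAK-kd libraries, with both FAK-nls libraries the lowest. The −log10 p of a peak moves with sequencing depth as well as with enrichment, and the part of depth in these differences was not tested.

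**Figure D5:**
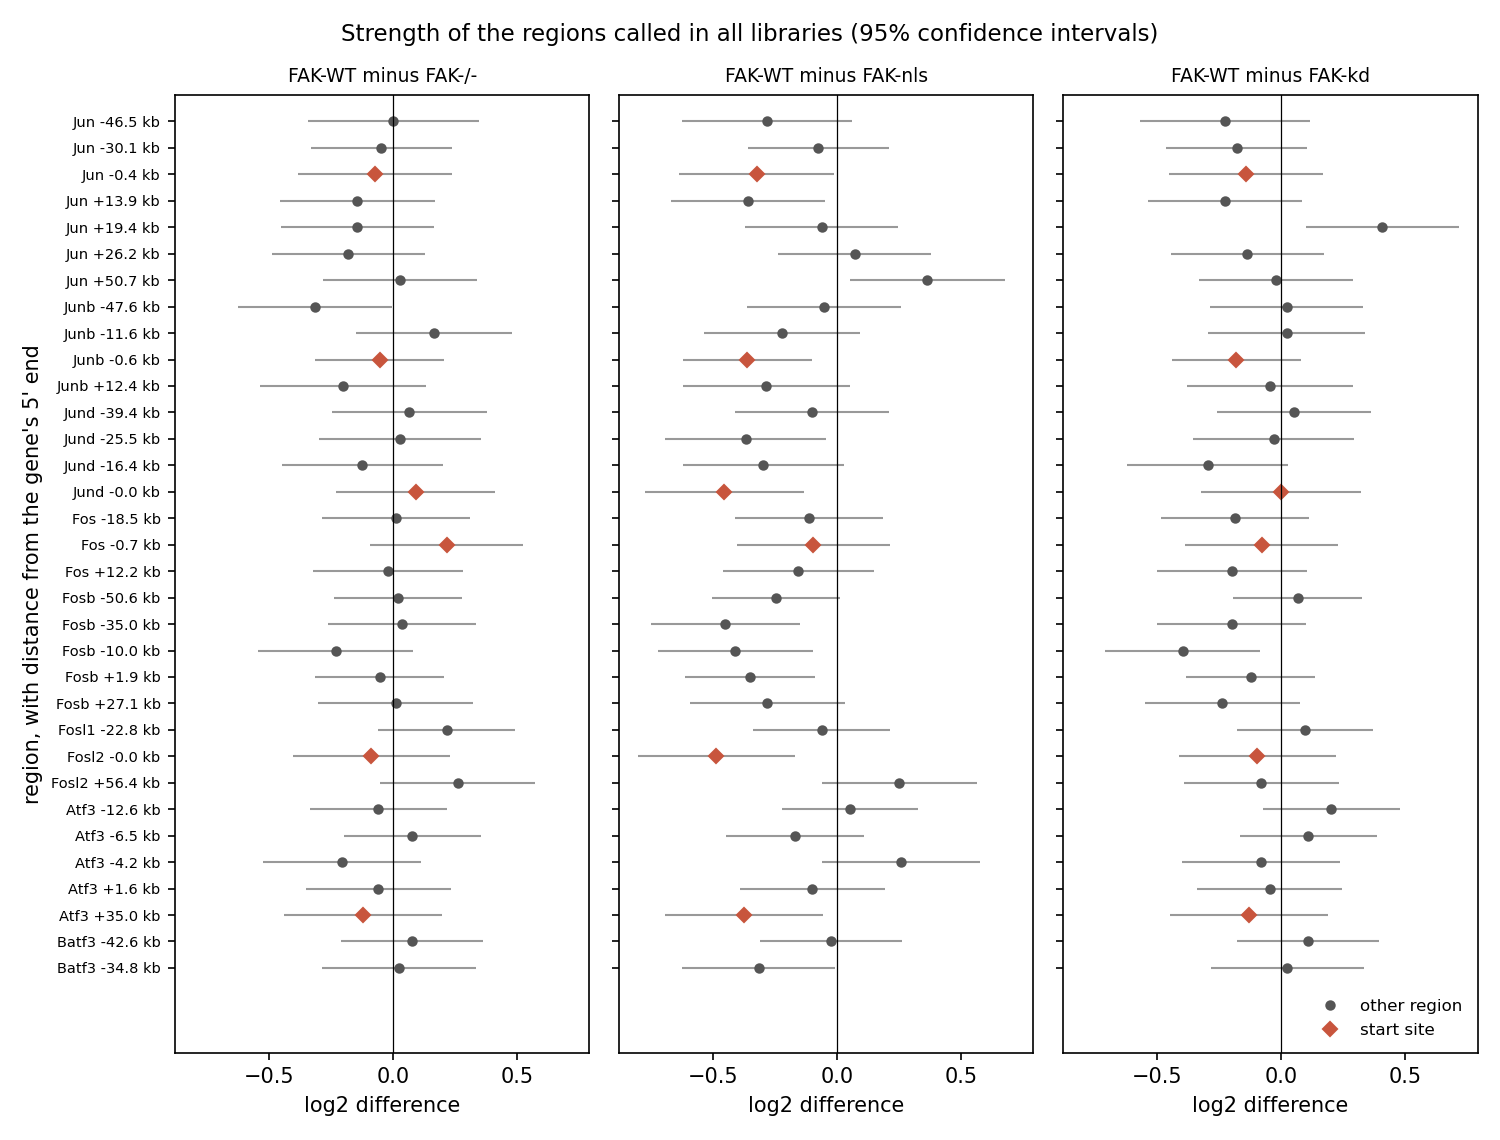
Difference in log2 fold enrichment, FAK-WT minus each other line (panels), for the 33 regions called in all 8 libraries (rows, by gene and distance from its 5′ end), with 95% confidence intervals from limma and start regions as red diamonds. Against FAK-nls 28 of the 33 points lie left of 0, all 6 start regions among them, and against FAK-/- 17 of the 33 do. Against FAK-kd 23 of the 33 lie left of 0, again with all 6 start regions. Without FAK-kd replicate 1 those numbers were 19 regions and 3 starts.

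The length of DNA under called peaks in each window was compared at equal numbers of peaks over 17635 protein-coding genes. Differences are FAK-WT minus the other line, on the log2(bp + 500) scale. Their median over all genes was 0.09 against FAK-/-, 0.32 against FAK-nls and 0.07 against FAK-kd. Over the 10 AP-1 genes it was 0.17, 0.25 and 0.09. Of the 10 genes, 0 passed an adjusted p of 0.05 in limma in any comparison (0% of all genes in each), and 3, 2 and 1 had an unadjusted p under 0.05 against FAK-/-, FAK-nls and FAK-kd (10.9%, 26.6% and 8.18% of all genes). The *Fosb* window stood apart, with 4044 and 3413 bp called in FAK-WT, 7333 and 8387 bp in FAK-/-, 5386 and 4046 bp in FAK-nls and 6382 and 7453 bp in FAK-kd libraries. FAK-WT and FAK-/- libraries did not overlap, nor did FAK-WT and FAK-kd libraries. The difference on the log2(bp + 500) scale was −0.98 ± 0.18 against FAK-/- (limma adjusted p = 0.142) and −0.81 ± 0.18 against FAK-kd (limma adjusted p = 0.263). With all peaks the *Fosb* window held 12999 and 10572 bp in FAK-WT, 11531 and 11054 bp in FAK-/- and 7653 and 10449 bp in FAK-kd libraries, so FAK-WT and FAK-/- overlapped and both FAK-WT libraries were above both FAK-kd libraries, the opposite of the order at equal numbers.

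In the *Junb* window 4336 and 3898 bp were called in FAK-WT, 4359 and 2971 bp in FAK-/-, 2111 and 1789 bp in FAK-nls and 4072 and 3886 bp in FAK-kd libraries. Both FAK-nls libraries were lower than the other 6, and the difference between FAK-WT and FAK-nls was 0.92 ± 0.20 (limma adjusted p = 0.0678). The differences against FAK-nls in this paragraph stand beside a median of 0.32 over all genes. The *Batf* window had the least called length, 365 and 373 bp in FAK-WT, none in FAK-/-, 200 and 200 bp in FAK-nls and none and 261 bp in FAK-kd libraries, and *Jun* the most in FAK-WT cells, with 6739 and 5696 bp. In the *Atf3* window both FAK-WT libraries (5455 and 5192 bp) were above all 6 others (3276 to 5082 bp), with differences of 0.35 ± 0.20, 0.45 ± 0.20 and 0.31 ± 0.20 against FAK-/-, FAK-nls and FAK-kd that did not pass the test (limma adjusted p = 0.599, 0.202 and 0.755). In the *Fosl2* window the difference against FAK-nls was 0.80 ± 0.32 (limma adjusted p = 0.164). Over all peaks, where the FAK-nls lists are shorter, 6 of the 10 windows passed against FAK-nls, as did 10007 of all genes, and the *Fosb* difference turned from −0.29 to 1.24.

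Among 24 partners and regulators of AP-1 (other basic leucine zipper proteins, MAP kinases, serum response factor and ETS cofactors), the start was called in all 8 libraries at 22, beside 39.5% of all protein-coding genes. *Mapk3*, which encodes ERK1, was called in the 6 libraries outside the FAK-nls pair. In the strength fit 0 of the 22 starts passed an adjusted p of 0.05 in limma in any comparison, with 0, 3 and 1 at an unadjusted p under 0.05, against 5.07%, 14.5% and 3.35% of all 8080 regions over a coding start. Their median difference against FAK-nls was −0.14 (−0.08 over the 8080 regions), and 3 of the 22 were higher in FAK-WT cells, as were 34.5% of the 8080.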

How the data were processed

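The authors aligned ATAC-seq reads of the 8 libraries to mm10 with the bcbio pipeline and called broad peaks in each library separately with MACS2 (2.1.1 in the submitters' processing notes). The deposited peak lists give, for each peak, the mean pileup (coverage in reads), the fold enrichment over local background as a ratio, and the −log10 p and −log10 q that MACS2 computed. Read totals of the libraries are stated with the study but are not in the lists and were not used here, so no value was scaled to depth. With 2 libraries a line, the limma errors pool the spread of all 4 lines (4 residual degrees of freedom). They are also moderated with the spread over all regions or genes (15.1 and 3.80 prior degrees of freedom). Regions are unions of peaks that shared 1 bp or more across libraries, each library represented by its strongest peak in the region. Called lengths in a region are summed over all peaks of the library in it. Log2 fold enrichment (libraries centred on their median) and log2(called bp + 500) were fitted with limma 3.58.1 in R 4.3.3, all 8 libraries together, with two-sided tests, Benjamini-Hochberg adjustment over all regions or genes within a comparison and a threshold of 0.05. Tables were made with Python 3.11.15 and pandas 2.3.3. The fits were also run on simulated data, with added changes larger than those of any AP-1 region or gene in the main fits. Their power at the sizes reported here was not tested. All 10 genes were named. In each, the start region, the region outside any start with the best median rank by −log10 p (in *Batf* a 200-bp peak of FAK-nls replicate 1 alone, at 82.0% of that list, the shortest of the 8), and the WT-only or reverse regions in the gene or nearest to it were described. Alternatives were other centring, strength measures, peak thresholds, windows, pseudocounts, a replicate block and leaving out each library. The members and gene lists were chosen with earlier results of these data known. Replicates are numbered in the labels and described as biological, and p-values measure the spread between these libraries. Motifs were searched in GRCm38.p6, and promoter sequences are from RefSeq on GRCm38.p6. The result for 1 gene of the list of partners is not reported here.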

Additional observations from a re-analysis of the deposited data

How the results depend on the processing

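Counts of regions by call pattern are small and rest on which peaks are called, and read depth was not used. The share of all regions under the same setting stands in parentheses. With equal numbers of peaks (80 AP-1 regions), reverse regions were 2 (3.31%), 4 (4.23%) and 3 (2.64%) against FAK-/-, FAK-nls and FAK-kd, WT-only regions were 4 against FAK-nls (4.91%) and 1 against FAK-kd (3.10%), and 19 were called in all 8 (32.7%). With −log10 q of at least 3 (81 AP-1 regions), WT-only regions were 5 against FAK-/- (5.77%) and 1 against FAK-kd (4.73%), 1 was reverse against FAK-/- (0.868%) and 18 were called in all 8 (20.04%). With 50% of a region covered (105 AP-1 regions), WT-only regions were 7 against FAK-/- (6.11%) and 6 against FAK-kd (5.57%), 1 was reverse against each (1.30% and 0.987%), and 14 were called in all 8 (10.5%). With peaks of 500 bp (111 AP-1 regions), 1 was reverse against FAK-nls (0.378%) and 1 WT-only against FAK-kd (4.33%). Within 10 kb of the genes (35 AP-1 regions), WT-only regions were 0, 8 and 0 against FAK-/-, FAK-nls and FAK-kd (4.89%, 15.3% and 4.33%), and 13 were called in all 8 (25.8%), so the share of AP-1 regions was 22.9% for WT-only against FAK-nls and 37.1% for calls in all 8.

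Leaving out single libraries gave 2 to 14 WT-only (4.89% to 20.4% of all regions) and 0 to 6 reverse regions (1.18% to 6.96%) against FAK-/-, 18 to 37 (15.3% to 37.6%) and 0 to 2 (0.248% to 1.47%) against FAK-nls, and 2 to 13 (4.33% to 18.1%) and 0 to 7 (0.83% to 8.09%) against FAK-kd, and 33 to 40 called in all (25.8% to 28.9%). The highest WT-only counts came without FAK-WT replicate 2, and the highest reverse counts without FAK-/- replicate 2 (6, beside 6.96%), FAK-nls replicate 2 (2, beside 1.47%) and FAK-kd replicate 1 (7, beside 8.09%). With FAK-WT replicate 1 left out, 4 regions were WT-only (7.92%) and 5 reverse (4.68%) against FAK-/-, and 3 WT-only (7.38%) and 5 reverse (3.70%) against FAK-kd. Against FAK-/- 5 were WT-only without its replicate 1 (10.3%) and 3 without its replicate 2 (6.17%). Against FAK-nls 27 were WT-only (19.5%) and 1 reverse (1.24%) without its replicate 1, and 25 were WT-only (20.3%) without its replicate 2. Against FAK-kd 4 were WT-only without its replicate 1 (5.41%) and 9 without its replicate 2 (11.8%).

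Of all regions in the strength fit against FAK-/- (5 past 0.05), 1 passed with quantile normalization, 0 without centring, 97 on log2 pileup, 0 by rank, 0 at −log10 q of at least 3 and 0 to 7 leaving out single libraries. Against FAK-nls (0) these were 322 on pileup, 955 by rank, 12 at the stricter q and 0 to 1 leaving out libraries. By rank, a measure that list length moves, 2 AP-1 regions passed against FAK-nls. Against FAK-kd (3) the numbers for all regions were 0 without centring, 58 on pileup, 0 by rank, 0 at the stricter q and 0 to 3 leaving out libraries. With the replicate block 1, 0 and 3 regions and no AP-1 region passed, and the replicate numbers did not pair the libraries (correlations of deviations from −0.23 to 0.08). Of 1341 values of AP-1 regions under these alternatives, 157 changed sign without passing in either setting.

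For called length, all genes past 0.05 numbered 9, 1 and 4 (against FAK-/-, FAK-nls and FAK-kd) with a pseudocount of 50 bp, 2, 2 and 5 with 2000 bp, 22 and 2 (FAK-/- and FAK-kd) within 10 kb, 146 (FAK-nls) with a peak in all libraries, 10007 (FAK-nls, 6 AP-1 genes) with all peaks, and 0 with the replicate block. Leaving out libraries gave 0 to 47, 0 to 248 and 0 to 21, with no AP-1 gene, and the counts above 0 came without FAK-nls replicate 1 (47, 164 and 12) or 2 (40, 248 and 21). Of 417 values of AP-1 genes 33 changed sign, and 1 was called in the opposite direction, *Fosb* against FAK-nls with all peaks (1.24, limma adjusted p = 0.00766). The cause was not tested. Ranked by fold enrichment, the starts other than those of *Fosl1* and *Batf* stood at 63.8% (*Jun*), 97.6% (*Junb*), 74.0% (*Jund*), 48.3% (*Fos*), 99.6% (*Fosb*), 70.3% (*Fosl2*), 55.4% (*Atf3*) and 96.0% (*Batf3*).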
